A study of Mus musculus with 5 samples.

Results

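The YTH-domain family of mouse comprises 5 genes, Ythdf1, Ythdf2, Ythdf3, Ythdc1 and Ythdc2, and all 5 were found by symbol among the 35976 gene rows of the count table. The libraries were made from haematopoietic stem cells (HSCs) of C57BL/6 mouse bone marrow. For each library 30 cells were sorted that lacked lineage markers and CD34 and carried Sca-1, c-kit and CD150, and their RNA was amplified by Smart-seq2, a full-length cDNA method. Libraries carry 2 genotype labels, WT (2 libraries) and Ythdf3-/- (3 libraries), and the samples came from different mice. The series text gives the numbers the other way round, with 2 knockout and 3 wild-type samples. No label gives the age of the mice or describes the Ythdf3 allele, so it is not known which exons it removes. Because Ythdf3 itself was read most in the libraries labelled Ythdf3-/- 2 and 3, libraries are named below only as they are labelled.

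YTH-domain proteins are readers of N6-methyladenosine (m6A), a methyl mark that a nuclear writer complex places on adenosines in mRNA. The YTH domain binds the marked base in a pocket lined by tryptophans. YTHDF1, YTHDF2 and YTHDF3 are closely related cytoplasmic proteins, and YTHDF2 is best known for bringing bound mRNA to the CCR4-NOT deadenylase for decay. YTHDC1 is the nuclear reader, linked to splicing and export. YTHDC2 is an RNA helicase best known from meiosis in germ cells. In HSCs the m6A pathway, and Ythdf2 in particular, is known for its part in self-renewal.

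The 3 YTHDF genes are the members that reads could most easily confuse, so the stretch of their coding sequences that is most alike is shown first. Of all gap-free windows of 150 bases in the alignment, the length of 1 sequenced read, this one has the most bases in common. It spans bases 1205 to 1354 of the 1761 coding bases of Ythdf1, and 1187 to 1336 of the 1740 of Ythdf2. In Ythdf3 it spans bases 1238 to 1387 of 1791. Its place relative to the borders of the YTH domain was not tested. Each window sits within 1 coding exon. The sequences are from the transcripts of the mouse assembly GRCm38 (mm10), written 5′ to 3′ on the coding strand, and capitals mark the bases that all 3 genes share. The Ythdf1 window is chr2:180911067-180911216 (minus strand), that of Ythdf2 is chr4:132204512-132204661 (minus strand) and that of Ythdf3 is chr3:16204895-16205044 (plus strand).
Ythdf1: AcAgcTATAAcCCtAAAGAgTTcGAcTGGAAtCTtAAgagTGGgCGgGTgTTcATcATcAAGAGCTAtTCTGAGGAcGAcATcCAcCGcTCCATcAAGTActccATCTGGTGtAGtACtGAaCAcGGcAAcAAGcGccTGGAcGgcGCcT
Ythdf2: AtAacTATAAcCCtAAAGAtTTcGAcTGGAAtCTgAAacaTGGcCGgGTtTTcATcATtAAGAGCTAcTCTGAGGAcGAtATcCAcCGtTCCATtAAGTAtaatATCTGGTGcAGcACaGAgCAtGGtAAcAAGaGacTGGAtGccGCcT
Ythdf3: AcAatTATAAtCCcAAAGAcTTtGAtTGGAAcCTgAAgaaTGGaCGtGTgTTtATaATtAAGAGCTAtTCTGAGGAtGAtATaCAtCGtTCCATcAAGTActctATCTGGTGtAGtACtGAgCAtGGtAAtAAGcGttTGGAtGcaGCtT
Even here only 106 of 150 bases (70.7%) were the same in all 3 genes, and no shared stretch was longer than 8 bases. Of the 44 bases that differed, 36 stood at the third position of a codon. Over the whole coding sequence Ythdf3 was 69.2% identical to Ythdf1 and 69.3% identical to Ythdf2. Its longest exact match to either was 17 bases, while Ythdf1 and Ythdf2 shared a run of 22 bases. Shared windows of 50 bases were sought in the transcript of each gene that has the longest coding sequence. It is 2272 bases long for Ythdf1, 4929 for Ythdf3 and 2960 for Ythdc1. The longer protein-coding transcripts of these genes, used for levels below, were not searched. No such window in the Ythdf3, Ythdf1 or Ythdc2 transcript occurred in an annotated transcript of another gene. In the Ythdf2 transcript 8.55% of such windows occurred in the processed pseudogenes Gm6823 or Gm8401 on chromosome X, and in the Ythdc1 transcript 20.1% occurred in Gm43055, a long noncoding RNA gene on the same strand whose exons overlap those of Ythdc1. None of these 3 other genes is a row of the count table, and how reads that match several places were treated is not given in the sources used here.

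Library totals ran from 6357862 to 16650134 counts, so that 1 count was worth between 0.0601 and 0.157 CPM, the usual scale on which every library has the same total. Transcripts of the sorted markers were read in all libraries for Ly6a (Sca-1, 100.9 to 393.6 CPM) and Kit (243.7 to 562.0 CPM). Cd34, whose protein the sort selected against, was read at 207.5 and 58.2 CPM in the libraries labelled WT 1 and 2 and at 140.1, 2.203 and 243.6 CPM in those labelled Ythdf3-/- 1, 2 and 3. Slamf1 (CD150) had 1 count in the library labelled WT 2 and at least 211 in each of the others, and of the 12 HSC markers between 10 and 12 had 10 or more counts in each library. The markers of erythroid cells summed to 36558 CPM in the library labelled Ythdf3-/- 1, led by Hba-a1, to 1301 CPM in that labelled WT 2, led by Car1, and to 34.2 to 130.4 CPM in the other 3. Gata1, which defines that lineage, had 1061 counts in the library labelled WT 2 and at most 6 in any other. The 8 cycling markers summed to 1279 CPM in the library labelled WT 2, 524.1 CPM in that labelled Ythdf3-/- 1 and 123.6 to 171.2 CPM elsewhere. B cell markers summed to 1562 and 580.9 CPM in the libraries labelled Ythdf3-/- 1 and WT 1, and to 58.5 to 219.7 CPM in the others. Cd3d, Cd3g, Cdh5, Lepr and Cxcl12, which define T, endothelial and stromal cells, were at 0 in all 5 libraries. Other markers of T and NK, endothelial and stromal cells were read. Emcn had 312 to 1059 counts per library. Pecam1 had 769 in WT 1, 682 in Ythdf3-/- 3 and at most 41 elsewhere. Col1a1 had 90 in WT 2 and 0 elsewhere. Lck peaked at 279 in Ythdf3-/- 1, while Nkg7 (412) and Klrb1c (327) peaked in Ythdf3-/- 2. Monocyte markers summed to 459.8 to 1095 CPM, mostly Lyz2, neutrophil markers to 316.4 to 722.7 CPM, mostly Prtn3, and megakaryocyte markers to 154.6 to 287.0 CPM. Sums were 51.1 to 141.7 CPM for stromal and endothelial markers, 2.28 to 93.1 CPM for T and NK cells and at most 0.601 CPM for mast cells and basophils. The libraries labelled WT 2 and Ythdf3-/- 1 therefore stand apart, and the fitted change of each reader is given with and without them. Those of the other pathway genes are from all 5 libraries.

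Ythdf3 (chromosome 3, 16183148 to 16217037 in RefSeq), the gene that the labels name as deleted, was read at 1.20 and 3.23 CPM in the libraries labelled WT 1 and WT 2. In those labelled Ythdf3-/- 1, 2 and 3 it was read at 0.315, 37.3 and 52.2 CPM. These values rest on 20, 29, 2, 339 and 366 counts in the same order. The 95% Wilson intervals, which cover counting error only because reads were amplified without molecular identifiers, were 0.778 to 1.86 CPM for WT 1 and 0.0863 to 1.15 CPM for Ythdf3-/- 1, and so overlapped. They were 2.25 to 4.64 CPM for WT 2, 33.6 to 41.5 CPM for Ythdf3-/- 2 and 47.1 to 57.8 CPM for Ythdf3-/- 3. The 2 libraries with the most Ythdf3 thus both carry the knockout label, and they stood 11.55 to 43.4 times above the libraries labelled WT. The third library with that label was the lowest of the 5, and the label groups overlapped. Gene-level counts do not show which exons were read, so they cannot tell an intact message from one that lacks part of the gene.

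Ythdf3 differed by a fitted log2 fold change (label Ythdf3-/- over label WT, as throughout) of 3.64 with an SE of 2.65, and this did not pass the edgeR quasi-likelihood test (adjusted p = 0.9998). All 5 readers passed the filter on low counts. The fit passed 0.0% of the 11146 genes tested, and 4.85% of them had an unadjusted p under 0.05. None of the 5 readers was in either set. DESeq2 passed 259 genes, 2.64% of the 9825 to which it gave an adjusted p, and again none of the 5. Nor was any reader among the 21 genes, 0.138% of 15240, that edgeR passed with no filter on low counts. In every fit in which 1 library or the pair named above was left out, the fitted change of Ythdf3 was positive, between 3.0 and 5.15. With a block on the replicate number it was 0.86 (SE 4.36). The library labelled Ythdf3-/- 3, the highest in Ythdf3, shares its number with no other and so did not bear on that value.

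**Figure D1:**
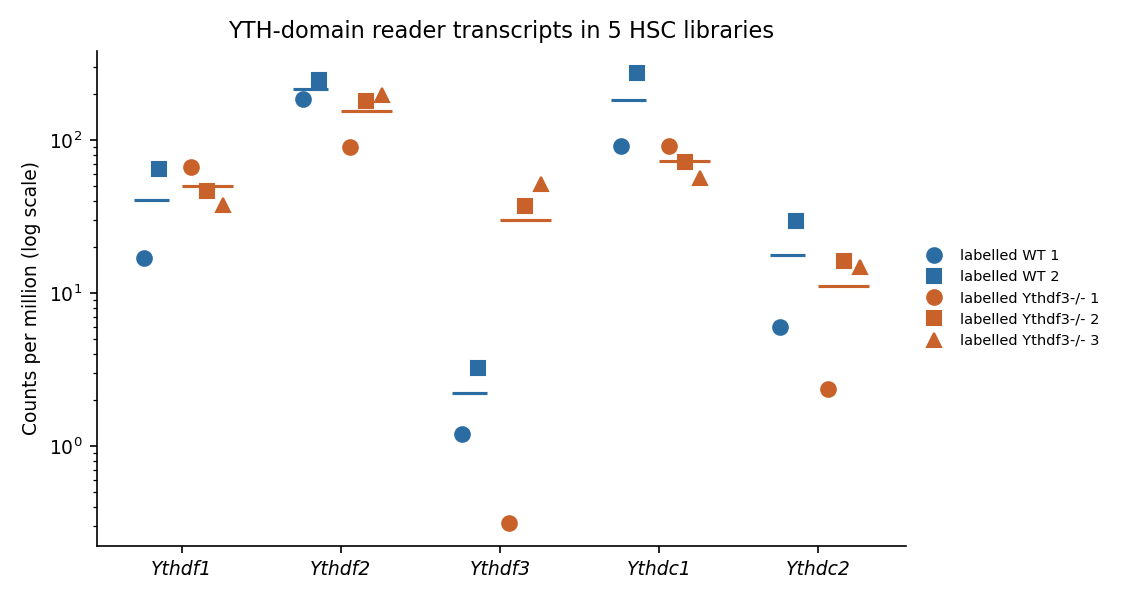
CPM on a log axis for the 5 readers. Each point is 1 library (blue, labelled WT; orange, labelled Ythdf3-/-) and each line a label mean. Ythdf3 is at 37.3 and 52.2 CPM in the libraries labelled Ythdf3-/- 2 and 3 and at 3.23 CPM or less in the other 3.

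Ythdf2 (chromosome 4, 132184916 to 132212256), the decay reader, was the steadiest of the family. It was read at 184.7 and 249.3 CPM in the libraries labelled WT 1 and 2 and at 90.1, 179.7 and 197.1 CPM in those labelled Ythdf3-/- 1, 2 and 3. The library labelled WT 2 was highest and that labelled Ythdf3-/- 1 lowest, and the groups overlapped. Its range over libraries was 1.46 on the log2(CPM + 1) scale, and 84.1% of the genes tested had a range at least as wide (median 3.71). The means were 217.0 ± 45.7 CPM (SD, n = 2) and 155.6 ± 57.4 CPM (SD, n = 3), with a log2 fold change of -0.58 (SE 0.51, edgeR adjusted p = 0.9998). The fitted change was -0.28 without WT 2, -0.27 without Ythdf3-/- 1 and -0.031 (SE 0.52) without both. The part of the erythroid and cycling transcripts of these libraries in the Ythdf2 values, and in those of the readers below, was not tested.

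Ythdf1 (chromosome 2, 180904377 to 180920936), linked to translation of marked mRNA, was lowest in the library labelled WT 1 at 17.1 CPM. It was read at 64.7 CPM in the library labelled WT 2 and at 67.0, 46.4 and 37.5 CPM in those labelled Ythdf3-/- 1, 2 and 3. The libraries labelled WT bracketed the rest except Ythdf3-/- 1, so the groups overlapped. The log2 fold change of 0.19 (SE 1.18, edgeR adjusted p = 0.9998) had no stable sign. It was 1.52 without the library labelled WT 2, -0.49 without that labelled WT 1 and -0.038 without that labelled Ythdf3-/- 1. With WT 2 and Ythdf3-/- 1 both left out it was 1.23 (SE 1.74).

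Per kilobase of the longest protein-coding transcript (3.184 kb for Ythdf1, 4.129 kb for Ythdf2, 5.102 kb for Ythdf3), Ythdf2 had the largest share of the YTHDF level in 4 libraries, and in that labelled Ythdf3-/- 1 the order depended on the length used. Its share was 88.9% (WT 1), 74.2% (WT 2), 50.8%, 66.5% and 68.5% (Ythdf3-/- 1, 2 and 3). Both shares under the WT label were above every share under the other, but 2 libraries against 3 are too few for an exact permutation test to pass 0.05. The shares are also parts of the same total. Those of Ythdf3 in the libraries labelled Ythdf3-/- 2 and 3 (11.2% and 14.7%) therefore lower the share of Ythdf2 there. In CPM the label groups of Ythdf2 overlapped. The share of Ythdf1 was 10.7% (WT 1), 24.97% (WT 2), 49.0%, 22.3% and 16.9% (Ythdf3-/- 1, 2 and 3). With the transcript that has the longest coding sequence, which for Ythdf1 is 2.272 kb long, Ythdf1 held 57.4% and Ythdf2 42.5% in the library labelled Ythdf3-/- 1, and Ythdf2 held 60.9% to 85.2% in the other 4. The choice between these lengths was made after levels on both had been seen. Ythdf3 held 0.468%, 0.779% and 0.144% in the libraries labelled WT 1, WT 2 and Ythdf3-/- 1, and 11.2% and 14.7% in those labelled Ythdf3-/- 2 and 3. The summed YTHDF level ran from 203.1 to 317.2 CPM for libraries labelled WT and from 157.4 to 286.7 CPM for the rest, with overlap between the labels. In pools of cells, fewer cells with a transcript and less of it in each cell cannot be told apart.

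Ythdc1 (chromosome 5, 86803980 to 86836659), the nuclear reader, was read at 92.1 and 274.2 CPM in the libraries labelled WT 1 and 2 and at 91.5, 72.1 and 56.6 CPM in those labelled Ythdf3-/- 1, 2 and 3. It was the only member whose label groups did not overlap, but the 95% Wilson intervals of WT 1 (87.6 to 96.8 CPM) and Ythdf3-/- 1 (84.4 to 99.3 CPM) overlapped. Groups that do not overlap in this direction were found for 11.0% of the genes tested, in the other direction for 9.74% and in either for 20.7%, so 1 of 5 members is near the background. The log2 fold change was -1.42 (SE 0.66, unadjusted p = 0.0630, edgeR adjusted p = 0.983). Without the library labelled WT 2 it was -0.36 (SE 0.81), and without that labelled WT 1 it was -2.03 (SE 0.57, edgeR adjusted p = 0.376). It was -1.58 without Ythdf3-/- 1 and -0.58 (SE 0.90) without both WT 2 and Ythdf3-/- 1. The library labelled WT 2 was also the one with the highest sum of cycling markers. Erythroid markers summed highest in that labelled Ythdf3-/- 1 (36558 CPM, against 1301 CPM in WT 2), where Ythdc1 was at 91.5 CPM. The windows shared with Gm43055 make the count of this gene uncertain.

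Ythdc2 (chromosome 18, 44827730 to 44889720), the helicase reader, was low in all libraries. It was read at 6.01 and 29.5 CPM in the libraries labelled WT 1 and 2 and at 2.36, 16.3 and 15.0 CPM in those labelled Ythdf3-/- 1, 2 and 3, from 15 to 265 counts. The highest library was again that labelled WT 2 and the lowest that labelled Ythdf3-/- 1, and the groups overlapped. Its log2 fold change of -0.78 (SE 2.12, edgeR adjusted p = 0.9998) turned to 0.87 once WT 2 was left out. It was -0.26 once Ythdf3-/- 1 was left out, and turned to 1.32 once WT 2 and Ythdf3-/- 1 were both left out.

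**Figure D2:**
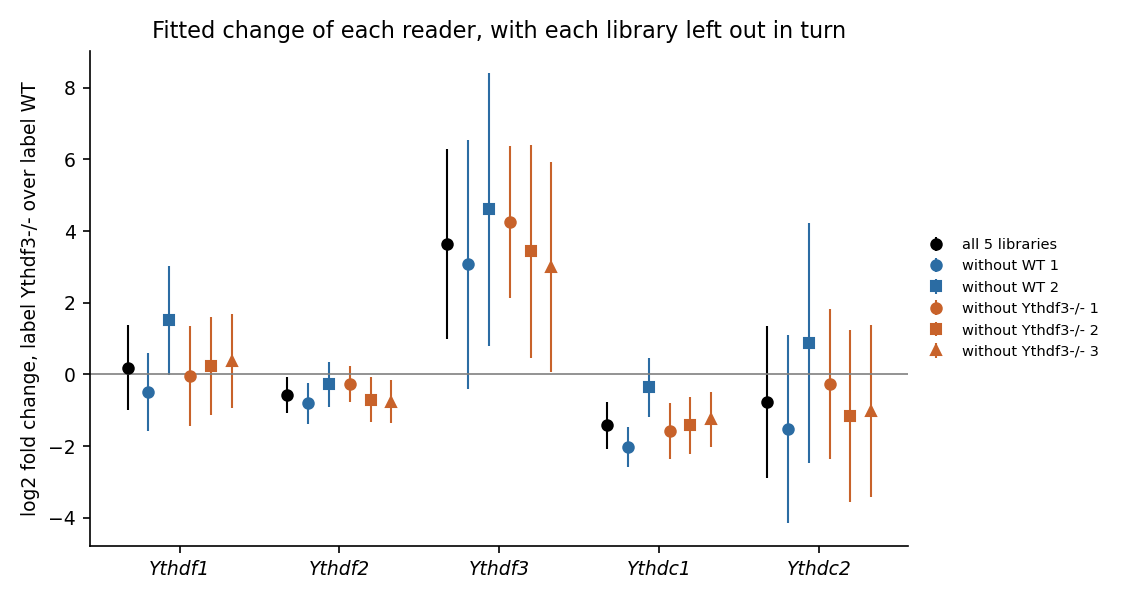
Fitted log2 fold change of each reader between the labels with its standard error, from all 5 libraries and with each library left out in turn. The bars of Ythdf1 and Ythdc2 cross 0 with all 5 libraries, and the point of Ythdc1 moves from -1.42 to -0.36 without the library labelled WT 2.

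Over all 5 libraries, whatever their label, the order of mean levels per kilobase of the longest protein-coding transcript was Ythdf2 (mean 43.6 ± 13.9 CPM per kb, SD, n = 5), Ythdc1 (35.9 ± 27.2), Ythdf1 (14.6 ± 6.47), Ythdf3 (3.69 ± 4.75) and Ythdc2 (1.92 ± 1.47). Ythdf2 was above Ythdc1 in 3 of 5 libraries and Ythdf3 above Ythdc2 in 2 of 5, so these neighbours did not differ beyond their spread. Ythdc1 was above Ythdf1 in 5 of 5 libraries although their ranges overlapped. Ythdf2 was above Ythdf1 in 5 of 5 libraries on this length. With the transcript of the longest coding sequence it was above in 4 of 5, the ranges overlapped, and the mean of Ythdf1 was 20.5 ± 9.06 CPM per kb (SD, n = 5), while the order of the 5 means was the same. In each library Ythdf2 ranked between the 62.3 and 86.7 percentile of the coding genes detected there, and Ythdc2 between the 15.0 and 36.5 percentile. Ythdf3 ranged from the 6.10 to the 46.3 percentile.

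The members also differed in their spread over libraries. Ythdf3 had a range of 5.34 on the log2(CPM + 1) scale, and 23.7% of the genes tested had a range at least as wide. Ranges of Ythdf1, Ythdc1 and Ythdc2 were 1.91, 2.26 and 3.18, with at least as wide a range in 75.1%, 68.5% and 55.8% of genes. All but Ythdf3 thus had a narrower range than the median gene. The genes tested were not matched to the readers for level, and the part of level in these ranges was not tested. Ythdf2, Ythdc1 and Ythdc2 peaked in the library labelled WT 2, where 22.9% of the genes tested also peaked, and Ythdf2, Ythdf3 and Ythdc2 were lowest in that labelled Ythdf3-/- 1, as were 24.4%.

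The genes whose profile was nearest to that of each reader were found by the root mean square difference of centred log2(CPM + 1) values over the 5 libraries, among 8757 named genes with a mean of at least 10 CPM. For Ythdf3 they were Bahd1, a chromatin silencing factor (difference 0.24), Ptpn9, a tyrosine phosphatase (0.27), and Cipc, a clock protein partner (0.29). Bahd1 was read at 1.86 and 3.12 CPM in the libraries labelled WT and at 0.157, 29.4 and 51.7 CPM in those labelled Ythdf3-/-. The 3 genes were picked for this likeness and reached the minimum mean through the libraries where they are high, so their profile is a description only. The median difference of the 8757 genes from Ythdf3 was 2.39.

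The genes named for the other readers were also picked for their likeness, so their profiles are a description only. Ythdf2 had the closest matches, Ell2 (0.067), Ndufb11 (0.068) and Fam92a (0.075), against a median of 1.37. Ndufb11, a subunit of respiratory complex I, was read at 165.9, 255.1, 89.5, 173.4 and 182.0 CPM in the order of the libraries above. Nearest to Ythdf1 were Fadd (0.13), Timm10 (0.17) and Trim28 (0.17). For Ythdc1 they were Tardbp (0.12), which encodes the RNA-binding protein TDP-43, Seh1l (0.13), a nuclear pore component, and Azin1 (0.16). For Ythdc2 they were Nek7 (0.16), Tra2a (0.19), a splicing regulator, and Mrps28 (0.22). Among the readers themselves the smallest differences were between Ythdf2 and Ythdc2 (0.71) and between Ythdf2 and Ythdc1 (0.75), and the largest between Ythdf3 and Ythdc1 (2.64).

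**Figure D3:**
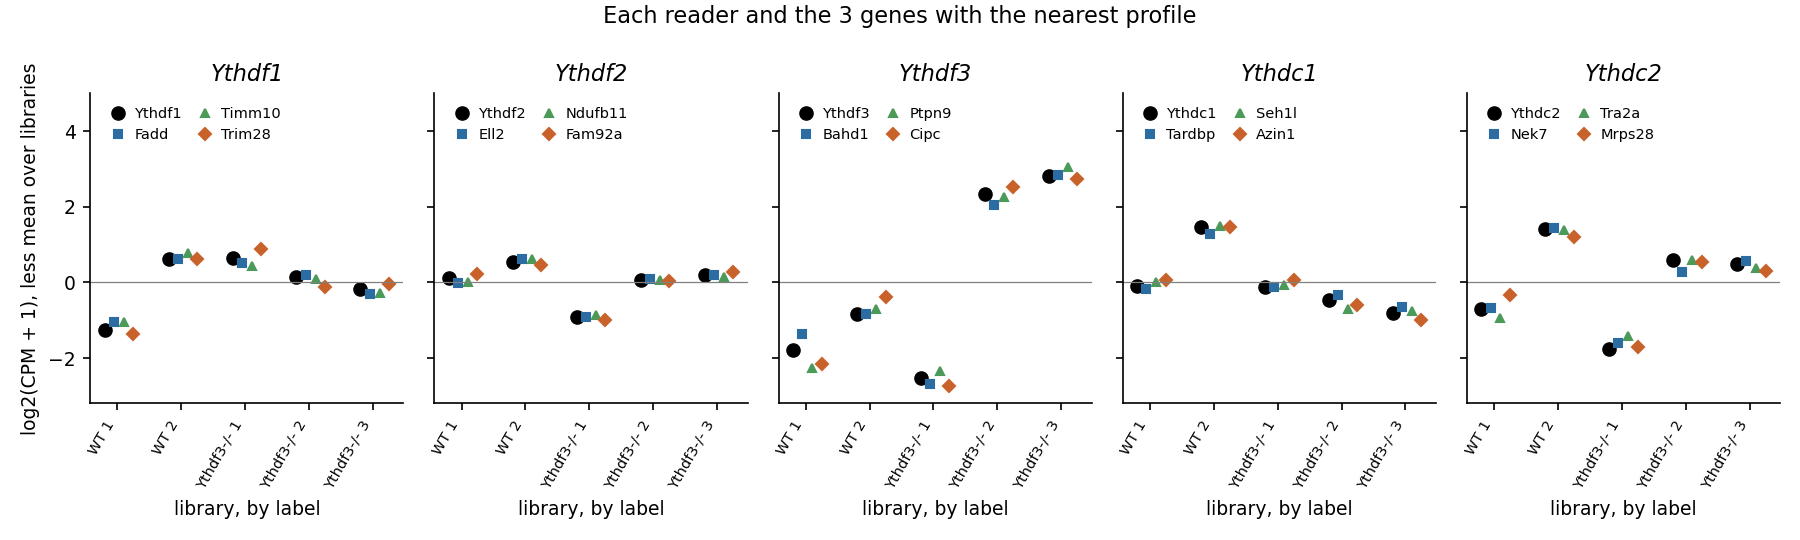
Centred log2(CPM + 1) of each reader (black) and of the 3 genes nearest to it, for the 5 libraries by label. In the Ythdf3 panel all 4 genes are above 0 only in the libraries labelled Ythdf3-/- 2 and 3.

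The other genes of the m6A pathway were read from lists of writers, erasers, other readers and partner proteins. No gene of these lists passed the edgeR test in either direction, against 0.0% of all genes. None had an unadjusted p under 0.05 in that test, against 4.85% of the genes tested. The median log2 fold change of the YTH family was -0.58, against -0.063 over all genes tested. In so small a family the median is the value of a single gene, here Ythdf2. Leaving out WT 2 moved the family median to 0.87, which is the value of Ythdc2, and that over all genes to 0.11. The same step turned the sign of the medians given below for the erasers (to 0.20), for readers without a YTH domain (to -0.32) and for eIF3 subunits (to 0.51). Leaving out Ythdf3-/- 1 moved the family median to -0.26, again the value of Ythdc2, and that of the erasers to -0.75. It turned the sign of the medians for decay partners (to -0.035), nuclear partners of YTHDC1 (to 0.18) and readers without a YTH domain (to -0.11). Leaving out WT 1 turned that of the other methyltransferases (to 0.0076), the value of Xrn1 (-0.62 to 0.37) and the median over all genes (to 0.18). In the family 2 members were fitted higher and 3 lower under the Ythdf3-/- label, where 52.2% of all genes tested were fitted lower. The counts of members fitted higher or lower in the lists below are to be read against that share.

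Of the 8 genes of the writer complex 6 were fitted lower (median -0.43), and 3 were lower in every library labelled Ythdf3-/- than in both labelled WT. Zc3h13, a scaffold of the complex, was read at 109.2 and 99.6 CPM under the WT label and at 22.3, 23.8 and 57.9 CPM under the other (log2 fold change -1.69, SE 0.90). Virma, another scaffold, which the table lists under the older symbol 1110037F02Rik, was read at 92.4 and 91.1 against 0.157, 18.8 and 40.6 CPM (-2.30, SE 1.63). The other one of the 3 was Mettl3, the catalytic subunit, named here after its values were seen (119.0 and 64.6 against 0.786, 33.5 and 47.5 CPM). Groups did not overlap in this direction for 11.0% of all genes. Like Ythdf2, Ythdf3 and Ythdc2, Virma and Mettl3 were lowest in the library labelled Ythdf3-/- 1, and so was Zc3h13.

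Other m6A methyltransferases were uneven, with 4 of 5 fitted lower and a median of -0.12. Mettl16, which methylates U6 small nuclear RNA, was read at 30.0 and 259.4 against 0.472, 39.1 and 51.9 CPM. Mettl5 and Trmt112, partners in methylation of ribosomal RNA, had log2 fold changes of 0.23 (SE 0.96) and -0.0025 (SE 0.41). Zcchc4, which also acts on ribosomal RNA, had -0.97 (SE 1.46) and Pcif1, which methylates the cap-adjacent base, -0.12 (SE 0.68). The erasers Fto and Alkbh5 had -0.14 (SE 1.68) and -0.37 (SE 0.91). The erasers' median was -0.26, and Fto had 2 counts in the library labelled Ythdf3-/- 3.

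Readers without a YTH domain showed no common direction, with 5 of 10 tested members fitted higher and a median of 0.012. Igf2bp1 was at 0 in all 5 libraries and was not tested. Prrc2a was read at 27.3 and 38.6 against 2.04, 0.661 and 23.4 CPM, and Igf2bp2 at 84.6 and 26.7 against 72.5, 9.47 and 23.9 CPM. Among the 13 decay partners of the YTHDF proteins 7 were fitted higher and 6 lower (median 0.021). Cnot1, the scaffold of CCR4-NOT that YTHDF2 contacts, was read at 239.2 and 106.3 against 12.7, 147.6 and 75.7 CPM, and Rida, which links YTHDF2 to RNA cleavage, at 46.7 and 1.34 against 28.5, 161.1 and 59.9 CPM.

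The 13 subunits of eIF3, an initiation factor that YTHDF1 is known to contact, had fitted changes between -0.49 and 0.61 with a median of -0.14. Eif3c (0.61, SE 0.43) was higher in every library labelled Ythdf3-/- than in both labelled WT, as were 9.74% of all genes, and Eif3g was at -0.47 (SE 0.41). Of 6 nuclear partners of YTHDC1, 2 were fitted higher and 4 lower (median -0.087). Srsf3, a splicing factor that YTHDC1 recruits, was read at 265.0 and 260.1 against 205.4, 174.4 and 180.1 CPM (-0.58, SE 0.39). Its groups did not overlap, and the same held in this direction for 11.0% of all genes. The export receptor gene Nxf1 had 0.33 (SE 0.46). Meioc, the germ cell partner of YTHDC2, was at 0 in all libraries and Rbm46 had 9 counts in the library labelled WT 2 alone. Xrn1, the exonuclease that YTHDC2 binds, had 130 to 819 counts in 4 libraries but 4 in that labelled Ythdf3-/- 1.

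**Figure D4:**
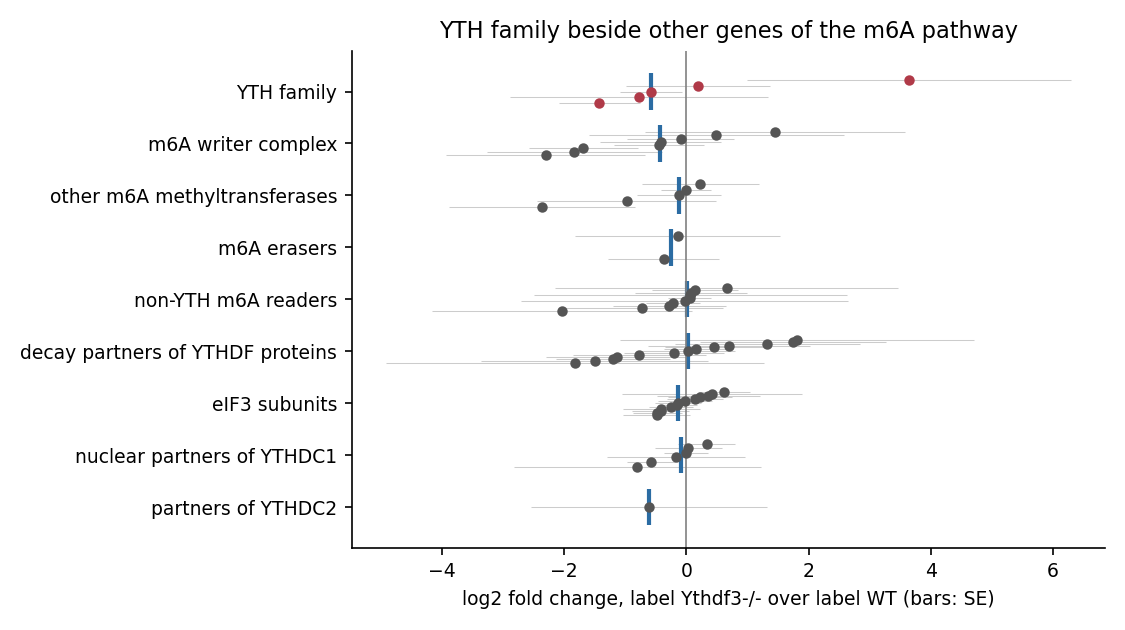
Fitted log2 fold change with its standard error for each tested gene of the YTH family (red) and of the other m6A lists (grey), and the median of each list (blue bar). Ythdf3 at 3.64 is the highest point, and no gene shown passed the edgeR test.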

How the data were processed

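Gene counts of 5 Smart-seq2 libraries were used as the authors deposited them, as raw read counts per gene symbol. The submitters' processing notes name mm10 as build, HTSeq 0.12.4 and HISAT2 2.2.1. Not given in the sources used here were the strand setting, how multiply mapped reads were handled, and which annotation was used. Groups follow the sample titles. The labels do not say more of the replicates than that the mice differ.

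CPM is a count divided by its library's total and scaled alike in all libraries. Counts were tested with edgeR 4.0.16 in R 4.3.3 (quasi-likelihood, robust, TMM scaling, default expression filter, no covariate) over 11146 genes, with Benjamini-Hochberg adjustment at 0.05. SEs were derived from the F statistic. Transcript lengths and sequences are from GENCODE M21 (GRCm38), gene spans from RefSeq GRCm38.p6, and coding sequences were aligned with MAFFT 7.526.

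The named genes are the 5 readers, the 3 genes of nearest profile for each, and the 2 list members of smallest p (all in lists of 5 or fewer). Members and lists were chosen with earlier results of these data known. Processed pseudogenes of the partner genes were not examined. Alternatives were other scalings, filters and tests, each library left out, and a replicate block.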

Additional observations from a re-analysis of the deposited data

How the results depend on the processing

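Under 15 alternatives to the fit none of the 5 readers passed an adjusted threshold, so the 75 member values could change only in sign, and 4 did. The log2 fold change of Ythdf1 ranged from -0.49 to 1.52 over fits that left out 1 library and was negative without the library labelled WT 1 (-0.49) or Ythdf3-/- 1 (-0.038). That of Ythdc2 ranged from -1.52 to 0.87 over the same fits and was positive without the library labelled WT 2 (0.87), as it was without that library and the one labelled Ythdf3-/- 1 together (1.32), an alternative chosen after seeing the data. The ranges over single libraries left out were -0.81 to -0.27 for Ythdf2, 3.0 to 4.60 for Ythdf3 and -2.03 to -0.36 for Ythdc1. The cause was not tested. Fits without a library labelled WT keep 1 under that label, which is assumed to vary like the others. The count of genes passing, 0 with edgeR (541 at an unadjusted p under 0.05), was 259 with DESeq2 and 21 with no filter. It ranged from 0 to 1 over libraries left out, the 1 being without that labelled WT 1. Limma voom passed 0 (726 unadjusted). With a replicate block 0 genes passed (285 unadjusted), and the log2 fold changes were 0.67 for Ythdf1, -0.83 for Ythdf2, 0.86 for Ythdf3, -1.05 for Ythdc1 and -1.18 for Ythdc2. The library labelled Ythdf3-/- 3 shares its number with no other, so it did not bear on these changes. The 2 shared replicate numbers mark no stated pair, and deviations of same-numbered libraries correlated at -0.0043 and 0.0094 over genes. At 2 counts in the library labelled Ythdf3-/- 1, the Wilson interval of its Ythdf3 level overlapped that of the library labelled WT 1. Overlap of intervals is not a test, and the difference between these libraries was not tested. Shares of the YTHDF genes under the other transcript length, an alternative added after seeing the data, moved by less than 1 SD between libraries of a label, but the larger of Ythdf1 and Ythdf2 changed in the library labelled Ythdf3-/- 1 (Ythdf2 50.8% to 42.5%).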
